A study of Mus musculus with 25 samples.

Results

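Myod1, Myf5 and Myog encode the transcription factors MyoD, Myf5 and myogenin, and their transcripts were followed here in cultured mouse myoblasts of 3 genotypes. The members were all probe sets of the U74 chips whose single platform gene symbol was one of these 3 names. That rule gave 3 of the 15964 genes with such a probe set, and 3 probe sets of 36701, 1 for each gene. All 3 lay on chip type U74Av2, which was hybridised with all 9 samples of the series. The cells were myoblasts grown from satellite cells, the stem cells of adult skeletal muscle, of wild type, MyoD-/- and p53-/- genotype, with 3 samples each, lettered A, B and C. The study asked which genes depend on MyoD and on p53, a transcription factor activated by DNA damage and other stress, in such cells.

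All groups were kept on plates coated with collagen, in Ham's medium supplemented with fetal calf serum at 20% and, at 4 ng/ml, bFGF, a growth factor that keeps myoblasts dividing. The labels of wild type and p53-/- call the harvested cells growing myoblasts, and those of MyoD-/- leave that entry out. Every group was purified by preplating and serial passage and given as over 98% pure. That purity was judged by desmin, Myf5 and MyoD in wild type and by Myf5 and c-met in both knockouts, so Myf5 was also one of the measures by which the cells of each genotype were accepted. RNA was prepared with Trizol, and the p53-/- labels alone read "Trizol x2", a difference that cannot be told apart from the genotype. The sources used here give no strain, no age, no design of either null allele and nothing on whether the letters stand for mice or cultures. P-values therefore reflect how far these samples varied, which may be technical. The region of Myod1 that the null allele removes and the region its probe set reads are also unknown here, so the signal left in MyoD-/- cells could not be assigned to an allele.

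The 3 proteins belong, with Myf6, to the myogenic regulatory factors, a family of basic helix-loop-helix (bHLH) proteins. Each binds DNA as a dimer with an E protein at a short motif called the E-box and switches on genes of the muscle lineage. Myf5 and MyoD act early, when cells commit to the lineage and multiply as myoblasts, and myogenin acts later, at the entry into terminal differentiation, where MyoD is one of its activators. MEF2 proteins bind an A/T-rich motif and work together with the bHLH factors, while Id and Twist proteins oppose them by taking up E proteins or the factors themselves.

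The promoters of Myog and Myf5 are shown because these genes took opposite courses in the MyoD-/- samples. They are the 250 bases before the annotated start in RefSeq, build GRCm38.p6, printed 5′ to 3′ on the gene's strand, at chr1:134289754-134290003 on the plus strand for Myog and chr10:107486135-107486384 on the minus strand for Myf5, and capitals mark E-boxes (CANNTG).
Myog: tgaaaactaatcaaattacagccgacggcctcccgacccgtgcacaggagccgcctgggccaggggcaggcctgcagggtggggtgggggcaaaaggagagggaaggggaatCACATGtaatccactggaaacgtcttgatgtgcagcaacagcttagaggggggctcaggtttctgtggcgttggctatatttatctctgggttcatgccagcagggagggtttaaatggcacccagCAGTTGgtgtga
Myf5: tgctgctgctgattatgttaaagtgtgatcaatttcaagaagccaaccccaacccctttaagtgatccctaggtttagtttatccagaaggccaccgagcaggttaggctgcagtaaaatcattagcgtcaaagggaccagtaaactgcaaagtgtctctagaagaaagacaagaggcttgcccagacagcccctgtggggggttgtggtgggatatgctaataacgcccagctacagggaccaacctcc
The Myog window held 2 E-boxes, CACATG at -138 to -133 and CAGTTG at -12 to -7, counted from the start, and the Myf5 window held none. At least 1 E-box stood in 66.2% of 27025 RefSeq promoters of this length and at least 2 stood in 31.7%. A MEF2-type motif, searched as CTANNNNTA or TTANNNNTA on both strands, occurred once in the Myog window, as CTATATTTA at -64 to -56. In the Myf5 window the search matched at 2 overlapping positions, CTAGGTTTA at -182 to -174 and TAGGTTTAG at -181 to -173, with 1 match on each strand. The bases that the search left free held GG in both Myf5 matches, and only A and T in the Myog match. The Myf5 matches are thus less A/T-rich than the Myog match. At least 1 such match stood in 30.8% of the promoters and at least 2 in 18.4%. These matches describe letters and not bound sites.

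The deposited values were MAS5 signals, a linear array intensity in arbitrary units that the authors had scaled to a common level per array. The median signal of an array lay between 463.9 and 565 on U74Av2, between 729.8 and 777 on U74Bv2 and between 454 and 545 on U74Cv2. Sample p53-/- C had the lowest median signal and the highest ratio of 3′ to 5′ Gapdh signal in both chip types that it was hybridised to. Its ratios were 0.879 on U74Av2 and 0.946 on U74Cv2, against ratios of 0.786 to 0.852 and 0.719 to 0.823 in the other samples. Results that rest on it are therefore given with and without it. On U74Av2 every array but MyoD-/- A was scanned on a shared day, and 1 chip lot was recorded for all. On U74Cv2 chip lot 3 was recorded for wild type, and lot 1, 2 or none for the knockouts. The lot there cannot be told apart from wild type against knockout. On U74Bv2 wild type was scanned on days 1, 2 and 2, and MyoD-/- on days 2, 3 and 3. Genes read on those chip types carry these limits.

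The 3 genes behaved differently. Myod1 fell in both knockouts, to 11.8% of the wild-type mean signal in MyoD-/- cells and to 54.1% in p53-/- cells. Myf5 rose in both, 5.96-fold and 7.0-fold over the wild-type mean signal. Myog fell in MyoD-/- cells to 5.63% of wild type, while its difference between p53-/- and wild type, at 31.3% of the wild-type mean, did not pass the test. Fold changes below are on the scale log2(signal + offset), where the offset was 67.19 on U74Av2, 146.08 on U74Bv2 and 106.35 on U74Cv2 and understates changes of dim genes, with limma standard errors and p-values adjusted over all probe sets tested. A call is an adjusted p under 0.05, while 95% intervals are not adjusted for the number of tests. All 3 members passed the filter on dim probe sets, which kept 63.5% of the probe sets of U74Av2.

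Myod1 (probe set 102986_at, chromosome 7), the gene targeted in the MyoD-/- mice and a driver of commitment to muscle, had signals of 37439.6, 40169 and 45187 in wild type samples A, B and C. In MyoD-/- samples they were 5352, 4024 and 5152, and in p53-/- samples 23450.4, 24450.1 and 18504. The 3 genotypes did not overlap: wild type was highest, p53-/- stood between, and MyoD-/- was lowest. The signal left in the MyoD-/- samples ranked at the 87.8th to 91.4th percentile of its array, against the 99.7th in every wild-type sample and the 98.4th to 98.9th in p53-/-.

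Mean signals were 40932 ± 3929.7 for wild type, 4843 ± 716 for MyoD-/- and 22135 ± 3184 for p53-/- (SD, n = 3 each). Against wild type, Myod1 changed by -3.07 ± 0.15 on the log2 scale in MyoD-/- cells (limma adjusted p = 3.06e-06), with a 95% interval of -3.39 to -2.75. It ranked 4th by p among 23632 probe sets, of which 10.6% were called. In p53-/- cells the change was -0.89 ± 0.15 (limma adjusted p = 0.00445), with an interval of -1.21 to -0.57, in a contrast where 10.1% of 15767 probe sets were called. MyoD-/- was also lower than p53-/-, by a log2 difference of -2.18 (limma adjusted p = 1.71e-05), where 13% of the same probe sets were called.

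Myf5 (101162_at, chromosome 10), the earliest of the factors to appear in the muscle lineage, read 165, 1041 and 973 in wild type A, B and C. It read 3548, 3419 and 6026 in MyoD-/- and 6009, 5032 and 4216 in p53-/-. Both knockouts lay above every wild-type sample and overlapped each other. Wild type A stood apart from the other wild-type samples, at the 30.6th percentile of its array against the 62.5th and 60.5th, and the highest wild-type signal was 6.3 times the lowest.

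The Myf5 means were 726 ± 487 for wild type, 4331 ± 1469 for MyoD-/- and 5086 ± 898 for p53-/- (SD, n = 3 each). The log2 fold change over wild type was 2.72 ± 0.50 in MyoD-/- (interval 1.62 to 3.83, limma adjusted p = 0.0061) and 2.98 ± 0.50 in p53-/- (interval 1.88 to 4.09, limma adjusted p = 0.00485). Both contrasts share the wild-type arrays, and without wild type A the changes were 1.99 and 2.25 (limma adjusted p = 0.00163 and 0.0032). Between the knockouts the difference was -0.26, with an interval of -1.37 to 0.84 (limma adjusted p = 0.804), and differences within that interval were not excluded. Its standard error of 0.50 shares the spread of the wild-type arrays. With the 2 knockouts fitted alone the standard error was 0.23 (limma adjusted p = 0.548).

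Myog (103053_at, chromosome 1), the factor of terminal differentiation, read 7278, 6891 and 3772 in wild type A, B and C and 291, 281 and 438 in MyoD-/-. In p53-/- it read 2612.5, 2746 and 254.5. Wild type lay above every knockout sample, and MyoD-/- was uniformly low, at the 39.9th to 45.4th percentile of its arrays. The p53-/- samples were split: A and B lay between the other genotypes, at the 81.2nd and 82.6th percentile, and C, the sample with the lowest median signal, lay below every MyoD-/- sample, at the 41.3rd percentile. The highest p53-/- signal was thus 10.8 times the lowest.

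Myog had means of 5980.3 ± 1922 for wild type, 336 ± 87.8 for MyoD-/- and 1871 ± 1402 for p53-/- (SD, n = 3 each). Its change in MyoD-/- against wild type was -3.87 ± 0.68 (interval -5.37 to -2.37, limma adjusted p = 0.00474). The 3 genotypes share 1 estimate of the spread, and without p53-/- C this change was -3.86 ± 0.25 (limma adjusted p = 4.98e-05). In p53-/- against wild type the difference was -2.11, with an interval of -3.61 to -0.61, and was not called (limma adjusted p = 0.0762). Without p53-/- C it was -1.08 (limma adjusted p = 0.0559). Between MyoD-/- and p53-/- the difference was -1.76 (interval -3.25 to -0.26, limma adjusted p = 0.124), and without p53-/- C it became -2.78 and was called (limma adjusted p = 0.000774). Whether the low median signal and high Gapdh ratio of p53-/- C had a part in its Myog value was not tested.

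**Figure D1:**
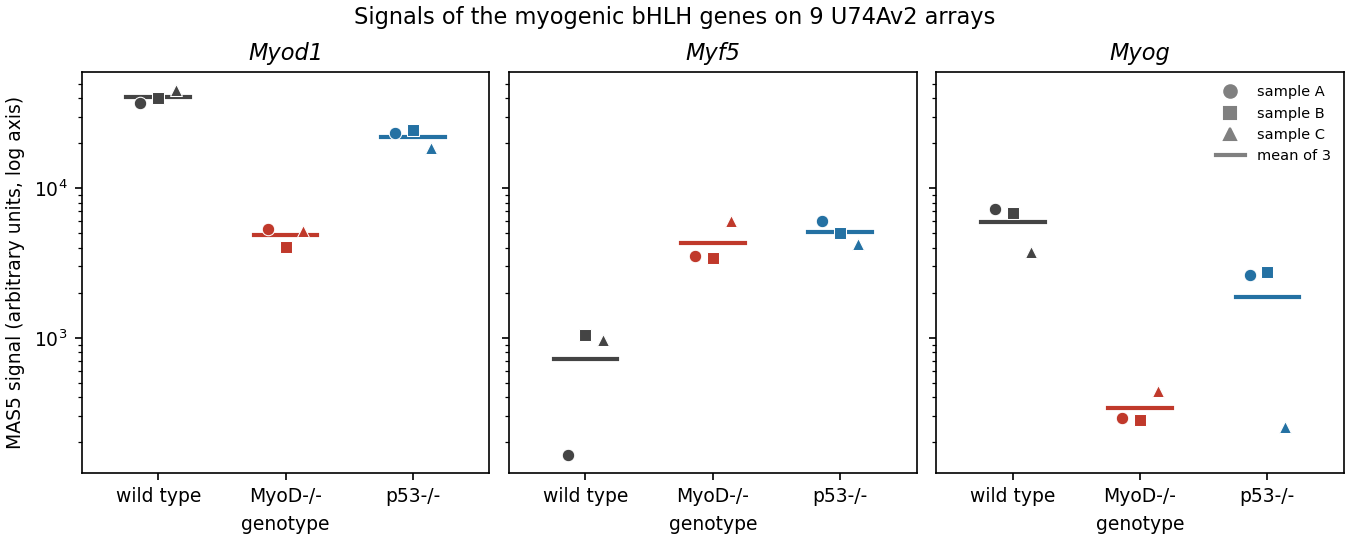
MAS5 signal (arbitrary units, log axis) of Myod1, Myf5 and Myog on the 9 U74Av2 arrays, by genotype, with a point for each of samples A, B and C and a bar for the mean of 3. Myod1 separates all genotypes, Myf5 is low in wild type with sample A at 165, and the Myog value of p53-/- C, 254.5, lies among those of MyoD-/-.

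Groups of a contrast did not overlap in 29% of all probe sets tested between MyoD-/- and wild type, in 30.9% between p53-/- and wild type and in 30.6% between the knockouts. For the members they did not overlap in 7 of 9 contrasts, the exceptions being Myf5 and Myog between the knockouts. For 1 pair of genotypes, with 3 arrays on each side, no exact permutation p can be smaller than 0.1. Over all 3 genotypes and 9 samples the exact permutation p of the F statistic was 0.00357 for Myod1, the smallest such a test can give, 0.0179 for Myf5 and 0.0214 for Myog, with no adjustment for the 3 genes. The order of genotypes was thus wild type, p53-/-, MyoD-/- for Myod1, from high to low, with each step called. For Myf5 it was p53-/- and MyoD-/-, not told apart, and then wild type. For Myog it was wild type, p53-/- and MyoD-/-, where only the outer pair was called.

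**Figure D2:**
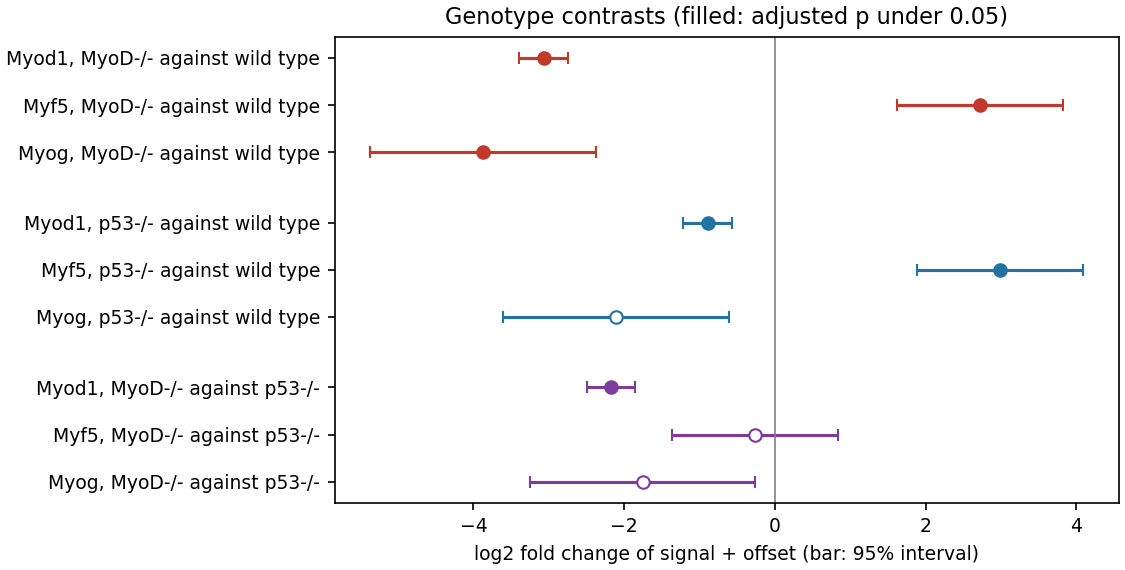
Log2 fold change of signal plus offset for each gene and pair of genotypes, with 95% intervals from limma; filled points have an adjusted p under 0.05. Myod1 has the narrowest intervals (-3.39 to -2.75 for MyoD-/- against wild type), and the Myf5 interval between the knockouts, -1.37 to 0.84, spans 0.

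The spread within a genotype also differed between the genes. The coefficient of variation of the Myod1 signal was 9.6% for wild type, 14.8% for MyoD-/- and 14.4% for p53-/-. For Myf5 it was 67.1%, 33.9% and 17.6%, and for Myog 32.1%, 26.1% and 74.9%, in the same order. The widest spreads, those of Myf5 in wild type and Myog in p53-/-, each came from 1 low sample, wild type A and p53-/- C.

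Myf6, the remaining member of the family and a factor of maturing fibres, read 167, 157 and 126 in wild type, 582, 313 and 597 in MyoD-/- and 423, 279.8 and 299 in p53-/-. Both knockouts lay above wild type in every sample. Myf6 rose in MyoD-/- by 1.34 ± 0.27 (limma adjusted p = 0.0107), and its difference of 0.88 in p53-/- was not called (limma adjusted p = 0.0705). Myf5 and Myf6 lie on the same chromosome, 10, in the mouse.

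As a background for the gene groups that follow, 6.15% of the 12058 genes tested were called higher and 6.83% lower in MyoD-/- against wild type, and 6.06% and 6.52% of 9013 genes in p53-/-. In these contrasts the median log2 fold change over all genes was -0.001 and -0.008. Because the filter took any 3 arrays, a gene of any list could be tested through the arrays of a single genotype. Such a gene could hardly be called in the opposite direction, so its direction is no separate result. Genes of this kind were not counted. Of the 3 E proteins, the common dimer partners, only Tcf12 was called in MyoD-/- against wild type, where it fell by 0.59 ± 0.15 on the log2 scale (limma adjusted p = 0.0297). Its signals were 11044, 8879 and 7649.6 in wild type, 6003, 5583 and 6528 in MyoD-/- and 8672, 7055 and 7356 in p53-/-, so MyoD-/- lay below both other genotypes. These signals came from U74Av2. Another Tcf12 probe set, on U74Cv2, did not show the fall. Wild-type samples ranged there from 645.7 to 1082.1, and MyoD-/- samples overlapped them, at 882.9 to 1152.9. The p53-/- samples, at 638.0 to 746.1, lay below every MyoD-/- sample on that probe set. The Tcf12 call thus rests on the U74Av2 probe set. Against wild type, Tcf4 differed by 0.17 and Tcf3 by 1.07 in MyoD-/- (limma adjusted p = 0.504 and 0.326). None of the 3 E proteins was called in p53-/-, nor had any an unadjusted limma p under 0.05 there.

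The MEF2 family had 4 members tested in MyoD-/- and none was called by limma, nor did any reach an unadjusted p under 0.05. Mef2c, whose product works with the bHLH factors on muscle promoters, differed by -0.80 (limma adjusted p = 0.25) and Mef2a by -0.26 (limma adjusted p = 0.575). A Mef2c probe set of U74Av2 that was too dim for the filter read 655, 1696 and 233 in wild type, 35.3, 133 and 29.2 in MyoD-/- and 46.0, 109.5 and 11.3 in p53-/-, with wild type above both knockouts. In p53-/- Mef2a was called lower, at -1.60 ± 0.19 (limma adjusted p = 0.00107), and 1 of 3 tested members passed. Its signals on U74Av2 were 8468, 8008 and 6551 in wild type, 6098, 8286 and 5218 in MyoD-/- and 2205, 2957 and 2296 in p53-/-. Only the p53-/- samples stood apart, and the direct contrast of the knockouts was called as well (log2 1.36, limma adjusted p = 0.00121).

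Among 17 tested antagonists of bHLH factors, 3 rose and 4 fell in MyoD-/- against wild type, with a median log2 fold change of -0.35, beside 6.15% of all genes called higher and 6.83% lower. The Twist genes, whose products bind E proteins and block the myogenic factors, rose: Twist1 read 489, 413 and 259 in wild type, 3253, 3711 and 2987 in MyoD-/- and 791, 375 and 269.5 in p53-/-. Twist1 was thus high in the MyoD-/- samples alone, with a change of 2.93 ± 0.32 against wild type (limma adjusted p = 0.000252) and 2.74 against p53-/- (limma adjusted p = 0.000525). Twist2 rose by 1.99 (limma adjusted p = 0.00138). Bhlhe40, a bHLH repressor, read under 90 in each wild-type sample and 649.6 to 882 in MyoD-/-, a rise of 2.80 (limma adjusted p = 0.000292). It rose in p53-/- too, by 2.10 (limma adjusted p = 0.00276).

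Id genes, whose products hold E proteins in dimers that cannot bind DNA, were among the antagonists called lower. Id3 read 14111, 14646 and 22889.6 in wild type, 5586, 4337 and 4741 in MyoD-/- and 12546, 13384 and 10660.3 in p53-/-. Its change in MyoD-/- was -1.77 (limma adjusted p = 0.00021), and all MyoD-/- samples lay below both other genotypes. Id2 fell by 0.52 (limma adjusted p = 0.0145). The other antagonists called lower were Snai1 at -1.16 and Bhlhe41 at -0.75 (limma adjusted p = 0.0212 and 0.0499). Id1 differed by -0.34 (limma adjusted p = 0.319), as did the bHLH repressor Msc by -0.18 and the cytoplasmic inhibitor Mdfi by -0.35 (limma adjusted p = 0.879 and 0.382). Another Msc probe set of U74Cv2 read 102.3 to 339.3 in wild type, 374.6 to 513.8 in MyoD-/- and 444.1 to 603.6 in p53-/-. There both knockouts lay above wild type, while on a Msc probe set of U74Av2 the genotypes overlapped. In p53-/- 1 of 16 antagonists was called higher and 1 lower, near the 6.06% and 6.52% of all genes.

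Regulators upstream of the myogenic factors were called lower in 7 of 13 cases and higher in none in MyoD-/- against wild type, with a median of -0.79, beside 6.83% and 6.15% of all genes. At an unadjusted limma p under 0.05 the counts were 8 and 0. Dmrt2, among those called lower, read 566.9 to 877.8 in wild type, 81.0 to 239.6 in MyoD-/- and 25.6 to 230.2 in p53-/-. It may therefore have been tested through the wild-type arrays alone. The log2 fold change was -2.27 for Sox11, -3.56 for Pitx3, -2.01 for Six2 and -1.63 for Eya2 (limma adjusted p = 0.000332, 0.000641, 0.0016 and 0.00187). Six4, a homeobox factor that binds the Myog promoter, read 5283, 5901 and 8381 in wild type, 3593, 1358 and 1803 in MyoD-/- and 5645, 3644 and 4715 in p53-/-. It fell by 1.60 in MyoD-/- (limma adjusted p = 0.0089), where every sample lay below wild type. In p53-/- 1 of 11 was called higher, which was Six2, and 2 lower, beside 6.06% and 6.52% of all genes.

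Six2 was the member of this list that moved in opposite directions. It read 900.2, 2033 and 2477 in wild type, 313, 372 and 406 in MyoD-/- and 6143, 5287 and 5759 in p53-/-, so the 3 genotypes did not overlap. Its change in p53-/- against wild type was 1.74 ± 0.29 (limma adjusted p = 0.00496), and MyoD-/- lay below p53-/- by -3.75 (limma adjusted p = 4.12e-05). Pax3 did not pass the filter, and Pax7, for which no single-symbol probe set was found, was not analysed here.

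Coactivators gave 1 higher and 1 lower of 14 in MyoD-/- against wild type, near the 6.15% and 6.83% of all genes. Smarcd3, the BAF60c subunit through which MyoD recruits the SWI/SNF remodelling complex, fell by 1.78 (limma adjusted p = 0.000154), and Kat2b, the acetyltransferase PCAF, rose by 1.95 (limma adjusted p = 0.000568). Smarcd3 read 13711, 15833 and 17628 in wild type and 4392, 3936 and 5158 in MyoD-/- on U74Bv2, where the single p53-/- array read 10041. On U74Cv2 it was called lower in p53-/- as well, by -0.70 ± 0.15 (limma adjusted p = 0.0135). In p53-/- 2 of 11 coactivators were higher, Carm1 (0.76, limma adjusted p = 0.00538) and Kat2b (0.98, limma adjusted p = 0.0274), and 1 was lower, beside 6.06% and 6.52% of all genes.

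Corepressors were called higher in 1 of 15 cases and lower in none in MyoD-/- against wild type, beside 6.15% and 6.83% of all genes. Hdac9, a class IIa histone deacetylase that represses MEF2, rose by 1.82 (limma adjusted p = 0.0119) from signals of 981, 739 and 395 in wild type to 1800.5, 4468 and 2204. In p53-/- the 1 call of 14, again near the 6.52% of all genes called lower, was cyclin D1 (Ccnd1), whose partner kinase restrains MyoD in dividing cells, with a change of -0.75 (limma adjusted p = 0.0113).

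**Figure D3:**
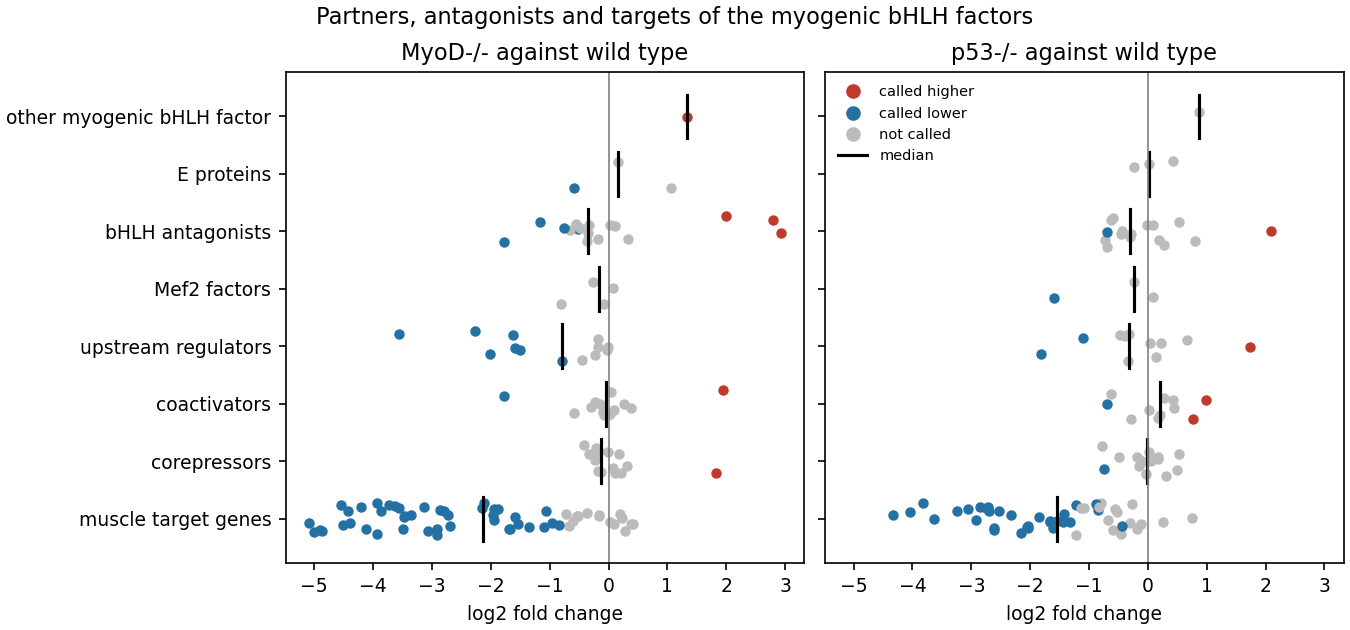
Log2 fold change against wild type of each tested gene of 8 lists around the myogenic bHLH factors, in MyoD-/- (left) and p53-/- (right); colour marks calls and the black bar the median of a list. Muscle target genes have medians of -2.13 and -1.54, and the partner lists lie nearer to 0.

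Most of the tested genes that the myogenic factors are known to switch on were called lower in each knockout. In MyoD-/- against wild type 43 of 58 tested muscle target genes were called lower and none higher, with a median of -2.13, beside 6.83% of all genes called lower, and 15 were not called. In p53-/- 31 of 47 were lower and none higher, with a median of -1.54, beside 6.52%, and 16 were not called. The filter took any 3 arrays, so a target could be tested through the wild-type arrays alone, as Myh3 and Pgam2 were. Such a gene could hardly be called other than lower, so for it the direction is no separate result. The number of such targets was not counted. The count in p53-/- was 17 without wild type A and 18 without wild type B. The filter was then applied anew to the arrays left, so targets tested through 3 wild-type arrays alone dropped out. These 2 counts are therefore not out of 47. Targets not called included Ldb3 at 0.38 and Casq1 at 0.28 in MyoD-/- and Myh7 at 0.75 in p53-/-, named here after their values were seen. These contrasts share the wild-type arrays, and at an unadjusted limma p under 0.05 no target was higher in MyoD-/- and 1 was in p53-/-. Between the knockouts 11 of 47 were lower in MyoD-/- and none was higher, with a median of -0.52, beside 8.44% of all genes called lower, 7.66% called higher and an overall median of 0.004; at an unadjusted limma p under 0.05, 3 were higher.

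The smallest adjusted p in MyoD-/- belonged to Stac3, part of the coupling of excitation to contraction, Cdh15, Mymk, the membrane protein of myoblast fusion, and Tpm2. Stac3 read 12798, 12418 and 9268 in wild type and 139, 385 and 235 in MyoD-/-, a change of -4.90 ± 0.24 (limma adjusted p = 1.06e-05), and the lone p53-/- array of U74Bv2 read 1346. Mymk read 17065.5, 20081 and 11470.1 in wild type, 1292, 1036 and 1097 in MyoD-/- and 5162 on the p53-/- array, a change of -3.63 ± 0.21 in MyoD-/- (limma adjusted p = 2.13e-05). Every MyoD-/- sample lay far below wild type for both genes. Tpm2, a tropomyosin of the thin filament, fell by 2.15 in MyoD-/- (limma adjusted p = 2.22e-05) and by 1.62 in p53-/- (limma adjusted p = 0.000488).

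In p53-/- the smallest adjusted p belonged to Tpm2, Pgam2, Ryr1 and Myh3. Pgam2, the muscle phosphoglycerate mutase, read 678, 808 and 613 in wild type and 11.6, 15.9 and 11.3 in p53-/-, a change of -3.25 ± 0.31 (limma adjusted p = 0.000506). Ryr1, the calcium release channel, changed by -3.07 (limma adjusted p = 0.000631), and Myh3, embryonic myosin, by -4.33 (limma adjusted p = 0.000801). In MyoD-/- Pgam2 read 12.7 to 24.3, which overlapped p53-/-. Myh3 read 4.6 to 18.6 in MyoD-/- and 10.6 to 150.4 in p53-/-, where a single sample lay above the MyoD-/- range. Ryr1 and Tpm2 were higher in every p53-/- sample than in any MyoD-/- sample, at 72.0 to 223.5 against 22.7 to 53.8 for Ryr1 and 3099.8 to 3837.6 against 2190.8 to 2539 for Tpm2.

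Cdh15 and Des stood at a level between the other genotypes in p53-/- cells, as Myod1 did. Cdh15, M-cadherin of satellite cells and myoblasts, read 5012, 4044 and 3091 in wild type, 545, 485.5 and 508 in MyoD-/- and 1635, 2018 and 1383 in p53-/-. It fell by 2.80 in MyoD-/- and by 1.23 in p53-/- (limma adjusted p = 1.97e-05 and 0.00359), and the knockouts differed by -1.58 (limma adjusted p = 0.000699). Des, the muscle intermediate filament protein desmin, read 3897, 3559.9 and 3551 in wild type, 199.8, 79.5 and 305 in MyoD-/- and 1583, 1726 and 839 in p53-/-. It fell by 3.93 and by 1.43 (limma adjusted p = 6.57e-05 and 0.0221). For both genes the 3 genotypes did not overlap.

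Between the knockouts the smallest adjusted p belonged to Chrna1, Cdh15, Des and Chrnb1, of which Chrna1 and Chrnb1 encode subunits of the acetylcholine receptor. Chrna1, the alpha subunit, read 24844, 25204 and 26280.2 in wild type on U74Av2, 174, 266 and 1685 in MyoD-/- and 11243, 10941 and 13093 in p53-/-. On U74Cv2, whose brighter probe set represented the gene, it fell by 5.08 in MyoD-/- (limma adjusted p = 0.000146), while the difference of -0.79 in p53-/- was not called (limma adjusted p = 0.365). The spread used there is shared with the MyoD-/- arrays, which read 737.7 to 4065.9. On both chip types every p53-/- sample read below every wild-type sample. The knockouts differed by -4.29 on U74Cv2 (limma adjusted p = 0.000528). For the beta subunit, Chrnb1, they differed by -1.17 (limma adjusted p = 0.00255), with p53-/- at 4804 to 5713 and MyoD-/- at 1791 to 3197.

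Muscle targets were also followed sample by sample, as the median over 47 genes of each gene's log2 level minus its mean over the 9 samples. That median was 1.42, 1.67 and 1.01 in wild type A, B and C, -0.88, -0.99 and -0.93 in MyoD-/- and -0.39, 0.18 and -0.79 in p53-/-. Wild type was high in every sample, MyoD-/- was low in every sample, and p53-/- ranged from near the middle down to the MyoD-/- level. The lowest p53-/- sample was C, which was also the one with low Myog: C had the lowest signal of its genotype in 36 of the 47 genes, and B had the highest in 36. Wild type C, the wild-type sample with the lowest Myog, was likewise the lowest of its genotype in 34 of 47. Chrna1 went against this order, with its highest p53-/- signal in C. Without p53-/- C, and with the filter applied anew to the arrays left, 22 targets were called against wild type and 14 between the knockouts.

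**Figure D4:**
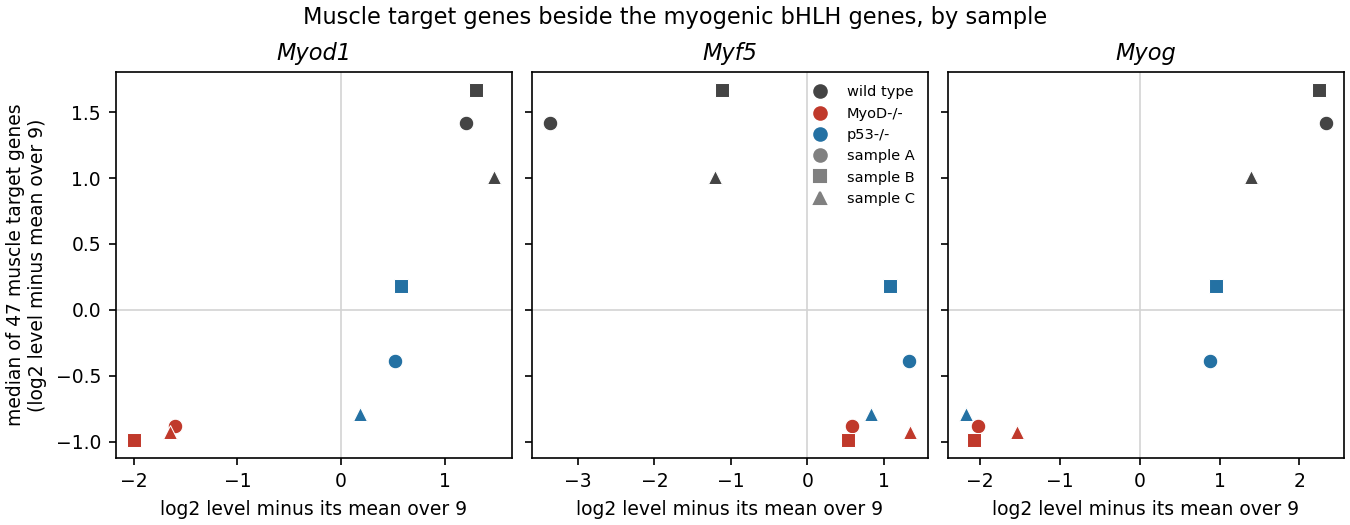
Median deviation of 47 muscle target genes (log2 level minus mean over 9 samples) in each sample, plotted against the same deviation of Myod1, Myf5 and Myog. The target median was -0.39, 0.18 and -0.79 in p53-/- A, B and C. Their Myog deviations were 0.88, 0.95 and -2.18, and their Myod1 deviations 0.52, 0.58 and 0.18. Both genes thus rank these samples alike, and A and B differ in the target median at similar Myog. The lowest Myf5 deviation, -3.37, is that of wild type A.

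The genes whose levels were most like those of each member over the 9 samples differed between the members. Likeness was Pearson's r of the log2 level over 5893 genes represented on U74Av2, and it mostly reflects the genotype means that the samples share. Closest to Myod1 were Ccnd3, cyclin D3 (r = 0.99), Des (0.984), Ubap1 (0.983), Lrrn1 (0.982) and 2210016F16Rik (0.981), and 102 genes had r above 0.9. Ccnd3 read 8963, 9220.0 and 10334.5 in wild type, 3763.5, 3119.8 and 3594 in MyoD-/- and 6224.5, 6989.6 and 5916.5 in p53-/-, the same order of genotypes with no overlap.

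Closest to Myog were Ap1g1 (r = 0.966), Musk, the receptor kinase of the neuromuscular junction (0.96), Retreg1 (0.958), Adgre5 (0.952) and Arhgap5 (0.946), with 27 genes above 0.9. Musk read 893, 786 and 1087 in wild type, 65.0, 21.0 and 70.5 in MyoD-/- and 312, 467 and 79.6 in p53-/-. Like Myog, it was near the MyoD-/- level in p53-/- C alone of the p53-/- samples. Closest to Myf5 were Prelid1 (0.957), Rpn1 (0.955), Scd2, a fatty acid desaturase (0.949), Pgam1 (0.941) and Sap30l (0.939), with 22 genes above 0.9. Scd2 read 4258, 5223 and 6521 in wild type, 9178, 7449 and 10895.5 in MyoD-/- and 11417, 11305 and 10134 in p53-/-, with both knockouts above wild type.

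Markers of the labelled cell type and of others were read beside these results. Of 13 tested myoblast markers, 3 were called higher and 5 lower in MyoD-/- against wild type, beside 6.15% and 6.83% of all genes, and of 12 in p53-/- none was higher and 4 were lower, beside 6.06% and 6.52%. The markers called higher in MyoD-/- were Cd34 at 3.28, Cav1 at 1.97 and Vcam1 at 1.65 (limma adjusted p = 0.00171, 0.011 and 0.00162). Desmin and M-cadherin, both muscle targets as well, were among the lower ones in each knockout, and so was Cxcr4, at -2.67 and -1.37 (limma adjusted p = 6.43e-05 and 0.0045). Met, the receptor c-met by which purity of the knockouts was judged, fell by 1.41 in MyoD-/- (limma adjusted p = 0.00015). The summed signal of the myoblast markers was 47190 to 52660 in wild type, 52980 to 57910 in MyoD-/- and 43050 to 50110 in p53-/-. Itgb1, with means of 22080 in wild type and 27710 in MyoD-/-, made up much of that sum. The mean of Vcam1 went from 2996 to 9934 and that of Cav1 from 2195 to 7751. Des, Cdh15, Ncam1 and Cxcr4 were called lower in MyoD-/-, so the sum did not follow the list as a whole.

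Part of the fibroblast marker list was called higher in MyoD-/-. The summed signal of the 10 tested genes was 46920 to 61720 in wild type, 102100 to 107700 in MyoD-/- and 45250 to 64580 in p53-/-. The mean signal of Fbln2 went from 586.1 in wild type to 20310 in MyoD-/- and that of S100a4 from 23750 to 45360, which made up much of the difference in the sum. In MyoD-/- 5 of 10 were called higher, beside 6.15% of all genes, led by Fbln2 at 5.02, Col1a1 at 2.26 and Gsn at 1.91 (limma adjusted p = 4.22e-05, 0.000101 and 0.00769), while none was called lower. The other 5 were not called and all lay below 0, at -0.07 for Col1a2, -0.24 for Col3a1, -0.08 for Pdgfra, -0.58 for Ddr2 and -0.43 for Pdpn. Thy1, Dcn, Lum, Tcf21, Fap and Postn did not pass the filter on dim probe sets. In p53-/-, where Myf5 rose and Myod1 fell as well, none of the 10 was called by limma, and at an unadjusted p under 0.05 there were 2 higher and 2 lower. Another Col1a1 probe set, which did not represent the gene, read 16.6 to 180.0 in wild type and 12570.3 to 16240.4 in MyoD-/-. In p53-/- it read 278.9 to 486.1, so there both knockouts lay above wild type. In bulk RNA, fewer cells of a type and less RNA per cell cannot be told apart, and the part of other cells in the Myod1, Myf5 and Myog values was not tested.

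The summed signal of 3 tested macrophage and leukocyte markers was 2009 to 2615 in wild type, 5573 to 7816 in MyoD-/- and 2085 to 2459 in p53-/-. The call there was Cd14 alone, at 1.92 (limma adjusted p = 0.000128), and Ptprc, Adgre1, Itgam and Lyz2 did not pass the filter. Smooth muscle markers gave 1 lower of 7 in MyoD-/-, which was Des, and 3 lower of 6 in p53-/-. Schwann and neural markers gave 1 higher of 5 in MyoD-/-, Pmp22, and none in p53-/-. The single adipocyte and the 2 endothelial markers that passed the filter were not called in MyoD-/-.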

How the data were processed

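RNA of myoblasts from wild type, MyoD-/- and p53-/- mice was measured on 25 Affymetrix arrays, 9 of U74Av2, 7 of U74Bv2 and 9 of U74Cv2. The deposited values were signal intensities on a linear scale, which the authors made with MAS5, per the submitters' processing notes, whose version was not stated. Arrays had already been brought to a common 2% trimmed mean (1500.3 to 1501), so no scaling was added. All deposited signal columns were matched to a sample by name. Precision is limited by how many arrays a genotype had, since no counts stand behind a signal.

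The 66 control probe sets of each chip were left out. Signals became log2(signal + offset), and the offset was 67.19, 146.08 and 106.35, the 20th percentile of each chip type. A probe set was tested if 3 arrays or more had it above their 40th percentile, which left 7884, 7865 and 7883. limma 3.58.1 (R 4.3.3, eBayes with a trend) was fitted per chip type on genotype, with two-sided p-values adjusted by Benjamini-Hochberg over 23632 probe sets for MyoD-/- against wild type and 15767, on U74Av2 and U74Cv2, for contrasts with p53-/-, which had 1 array on U74Bv2. The fit was tested on simulated data. Exact permutation tests used the 9 samples of U74Av2, and 21 alternatives were run.

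Symbols came from GEO's platform annotation: 10833, 10581 and 7717 probe sets had a single symbol, 396, 178 and 150 had several, and 1193, 1652 and 4001 had none. Names and chromosomes were updated by gene ID from a GRCm38.p6 table, which held 10817, 10550 and 7677 of the single symbols. A gene was represented by whichever tested probe set ranked highest on its arrays on average, so a gene can be represented by different chips in contrasts with and without U74Bv2. Named genes were the members, the 5 genes most like each, from each list the called genes of smallest adjusted p, 4 at most per contrast, and a fixed set of partners and markers, of which 1 is not reported here. The members and lists were chosen with earlier results of these data known. Promoters came from RefSeq, whose table held 2 of the 3 genes. Letters did not pair samples: the deviations of same-letter samples on U74Av2 correlated at -0.12 to 0.128 (median 0.008).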

Additional observations from a re-analysis of the deposited data

How the results depend on the processing

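Under 21 alternatives each (scaling, offset, filter, variance model, samples in the fit, scan day, replicate block and each sample left out), Myod1 and Myf5 kept their direction and their side of the threshold in all 3 contrasts, and so did Myog in MyoD-/- against wild type. The ranges over samples left out were -3.14 to -2.94 for Myod1 and 1.99 to 3.11 for Myf5 in MyoD-/- against wild type. Myog in p53-/- against wild type ranged from -2.65 to -1.08 over samples left out, and was called only without p53-/- B (-2.65, limma adjusted p = 0.0497; 0.0497 to 0.19 over all alternatives). Myog between the knockouts ranged from -2.78 to -1.22 and was called without p53-/- C (-2.78, limma adjusted p = 0.000774) and with array weights (-2.26, limma adjusted p = 0.0167). Muscle targets called in p53-/- numbered 31, and 17 to 31 over samples left out, with 17 without wild type A and 18 without wild type B. With a sample left out the filter was applied anew, so counts of calls over samples left out also reflect probe sets no longer tested. Probe sets called numbered 2515 in MyoD-/- against wild type (1451 to 2507 over samples left out, and 1316 on the shared scan day alone, where U74Bv2 was not used), 1598 in p53-/- against wild type (868 to 1880) and 2045 between the knockouts (1267 to 1947). On the shared scan day alone Myod1, Myf5 and Myog stood at -3.14, 2.84 and -3.79 in MyoD-/- against wild type. The letters did not pair the samples, and a fit with the letter as a replicate block gave -3.07 for Myod1 in MyoD-/- against wild type (limma adjusted p = 3.66e-05) and -2.11 for Myog in p53-/- (limma adjusted p = 0.0596), and changed no call of a member. Leaving out 1 sample also takes 1 of 3 arrays from a genotype. In MyoD-/- against wild type the limma standard error was 0.68 for Myog and 0.15 for Myod1. For Myog it was 0.25 without p53-/- C, which is outside that contrast but shares its estimate of the spread.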
